A study of Mus musculus with 24 samples.

Results

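Fibroblast growth factor (FGF) signaling was followed through 10 genes of the 14427 in the count table: the ligands Fgf2, Fgf1 and Fgf7, Nudt6 (the gene that overlaps Fgf2 on the opposite strand), the receptors Fgfr1, Fgfr2 and Fgfr3, and the feedback inhibitors Spry1, Spry2 and Spry4. All 10 were found in the table. The set was chosen by the measured difference of Fgf2 and Nudt6 between the male p53 Y217C and male p53 KO libraries, and was then extended to receptors and feedback genes. The male Y217C against KO values of all 10 genes, and every comparison of Fgf2 or Nudt6 that includes the male Y217C line, are therefore given as a description, with no test.

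FGFs are secreted proteins that bind heparan sulfate and activate receptor tyrosine kinases, which signal through adaptors and RAS to the ERK kinases. ERK signaling in turn induces Sprouty (Spry) proteins and dual specificity phosphatases, which dampen the same route. In the brain Fgf2 is a mitogen for neural progenitors and astrocytes, Fgfr3 is a receptor of the astrocyte lineage, and Fgf7 is classically made by mesenchymal cells and acts on a splice form of Fgfr2 found in epithelium.

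The study asked how missense mutants of p53 act in male and female cells. Astrocytes were taken from the cortex of C57BL/6 mice at postnatal day 1, from pups carrying 1 floxed and 1 deleted Trp53 allele, with at least 3 pups pooled per sex. The R172H, Y202C and Y217C lines received a retrovirus encoding that mutant p53 together with eGFP, were sorted for eGFP, and then lost the floxed allele through a lentiviral Cre with a puromycin marker. The KO lines received Cre alone, so that the mutant and the retrovirus that carried it cannot be told apart in any comparison with KO. The 8 lines, male or female with KO, R172H, Y202C or Y217C, had 3 libraries each, at passages 10 to 15 in 10% serum. The replicates were separate thaws and platings of a line, so that p-values measure the spread between platings. Each line was 1 culture and each sex was 1 pool, and sex and culture cannot be told apart.

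Library totals ran from 52787288 to 136503809 counts. Trp53 itself was at 46.5 to 53.7 CPM (counts scaled to library size with TMM factors) in the KO libraries and at 572 to 3870 in the mutant libraries, as labeled. The mutant lines were not matched in Trp53 level. Its means were 2287, 2324 and 1215 CPM in male R172H, Y202C and Y217C. In the female lines they were 1956, 593 and 3709 CPM in the same order. The label astrocyte was only partly borne out by its markers. The gap junction gene Gja1 and the transcription factor Sox9 were at 77.3 to 238 and 70.9 to 186 CPM over the libraries, whereas Gfap averaged at most 0.257 CPM in 7 lines and 6.93 in male Y217C, and the water channel Aqp4 averaged at most 0.113 CPM in 6 lines, 1.77 in male Y202C and 8.06 in male Y217C. The 7 fibroblast or pericyte markers, led by Col1a1, summed to 8756 to 48779 CPM. The lines are called by their names below. Of the microglial markers 2 of 8 were in the table, Cx3cr1 and Ptprc not among them, as were 4 of 8 oligodendrocyte lineage, 3 of 6 neuronal and 3 of 5 endothelial markers.

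The first results concern Fgf2 and Nudt6, which lie tail to tail on mouse chromosome 3 (GRCm38). Fgf2 spans chr3:37348346-37410108 on the plus strand and Nudt6, a nudix hydrolase gene, spans chr3:37404910-37420211 on the minus strand, so that their spans share 5199 bases. In the annotation 640 exonic bases belong to both genes, which is 9.44% of the exonic length of Fgf2 and 38.2% of that of Nudt6. Whether the counting used strand is not given in the sources used here. The authors counted only uniquely aligned, unambiguous reads. Without strand, reads within the shared bases would be ambiguous and would enter neither count. The start regions of the genes were read from RefSeq (GRCm38.p6), which matched 7 of the 10 genes. The RefSeq starts of Fgf2 and Nudt6 lie inside the GENCODE spans given above, and positions in the windows are counted from the RefSeq starts. All 250 bases before that start of Fgf2, and 24 of the 250 before that of Nudt6, are exonic in GENCODE. The stretch around the single GC box (GGGCGG, searched on both strands) in the 300 bases at the Fgf2 start, and a stretch with overlapping GC boxes upstream of the Nudt6 start, are shown because the genes share a level pattern but start at opposite ends of the locus. Capitals mark GC boxes.
Fgf2, chr3:37348592-37348621, plus strand: aggcggcgcgcgGGGCGGgggcgcacgggg
Nudt6, chr3:37419716-37419745, minus strand: gcgatgtGGGCGGGGCGGgaagGGGCGGgg
The Fgf2 window held 1 GC box, 49 bases before the RefSeq start, and the Nudt6 window held 9, where 35.7% of all 32851 windows of the same length held at least 1. Both windows were rich in G and C, at 62.7% for Fgf2 and 70.3% for Nudt6 against a median of 52.7% over all windows. These are matches of letters, not binding sites.

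Fgf2 mRNA was low in all lines, at 0.889 to 11.0 CPM over the 24 libraries. The male Y217C libraries were at 11.0, 10.6 and 10.5 CPM, and the male KO libraries at 2.13, 1.87 and 2.30 CPM. These groups did not overlap, and the fitted difference, which chose the gene, was 2.35 ± 0.12 on the log2 scale (SE, n = 3 and 3). In these bulk libraries more cells with a transcript and more transcript per cell cannot be told apart. Male Y217C was also the line with the most Gfap, Aqp4 and Aldh1l1, at 4.98 to 8.37, 7.0 to 9.22 and 48.9 to 62.2 CPM. Other astrocyte markers peaked elsewhere, Slc1a3 and Sox9 in female R172H and Gja1 in female KO, and the sum of all 9 was highest in female R172H (618 to 653 CPM against 501 to 535 in male Y217C). The part of these markers in the Fgf2 level was not tested.

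The rise of Fgf2 was not limited to that line. The male Y202C libraries were at 3.89, 3.62 and 3.77 CPM, above every male KO library, and Fgf2 rose 1.79-fold there (log2 0.84 ± 0.12 SE, edgeR's quasi-likelihood test, adjusted p = 7.43e-07). In male R172H the libraries were at 1.23, 1.23 and 1.21 CPM, below every male KO library, and Fgf2 fell 1.71-fold (log2 -0.78 ± 0.12, adjusted p = 2.68e-05). The female lines gave another order. The female KO libraries were at 1.47, 1.18 and 1.22 CPM, against 3.82, 3.27 and 3.80 CPM in female R172H, a 2.81-fold rise without overlap (log2 1.49 ± 0.12, adjusted p = 1.27e-10). Female Y202C, at 4.18, 3.74 and 3.98 CPM, was 3.06-fold above female KO (log2 1.62 ± 0.12, adjusted p = 4.94e-11). Female Y217C, which carries the mutant of the highest male line, was the lowest of all lines at 0.905, 0.889 and 1.12 CPM. Its libraries lay below those of female KO, and Fgf2 was lower by 1.33-fold (log2 -0.42 ± 0.13, adjusted p = 0.011). That call was lost without female KO replicate 1 (adjusted p = 0.0818), without female Y217C replicate 1 or replicate 2 (0.0509 and 0.0516), and when the fit held the compared lines only (0.0878).

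Ordered by level, male Y217C came first, followed by female Y202C, male Y202C and female R172H, whose neighbors in that order did not differ past the threshold (adjusted p = 0.564 and 0.695). Male KO came next, below female R172H (adjusted p = 2.3e-06) and above female KO (0.000102). Female KO and male R172H overlapped (0.65), and female Y217C was last, just below male R172H (0.0483). Male Y217C was 11.0-fold above female Y217C, as a description. The Trp53 means of these lines were 1215 and 3709 CPM.

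Nudt6 was counted more often than Fgf2 in all 24 libraries once exonic length was considered. The ratio of CPM per kilobase of exon, Nudt6 to Fgf2, ran from 4.08 to 12. Nudt6 was at 14.5, 13.2 and 14.9 CPM in male Y217C against 3.24, 3.36 and 3.47 in male KO, a described difference of 2.08 ± 0.15 on the log2 scale. Its changes in the other lines ran in the same directions as those of Fgf2 in 4 of the 5 tested comparisons. It rose in male Y202C to 5.68, 6.32 and 8.65 CPM (2.04-fold, adjusted p = 1.61e-06), in female R172H to 3.85, 5.48 and 4.57 CPM from 2.52, 1.75 and 2.11 in female KO (2.16-fold, adjusted p = 1.01e-06), and in female Y202C to 5.34, 4.73 and 5.46 CPM (2.42-fold, adjusted p = 1.87e-07). It fell in male R172H to 2.66, 2.33 and 2.15 CPM (1.41-fold, adjusted p = 0.015), a call lost without male R172H replicate 3 (adjusted p = 0.0675). In female Y217C, at 2.15, 2.64 and 2.11 CPM, it overlapped female KO (log2 0.11 ± 0.16, adjusted p = 0.602). The libraries of every line with a raised Fgf2 level thus lay above their own KO in both genes. How reads from the shared exonic bases were handled depends on strand use, which is not given.

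**Figure D1:**
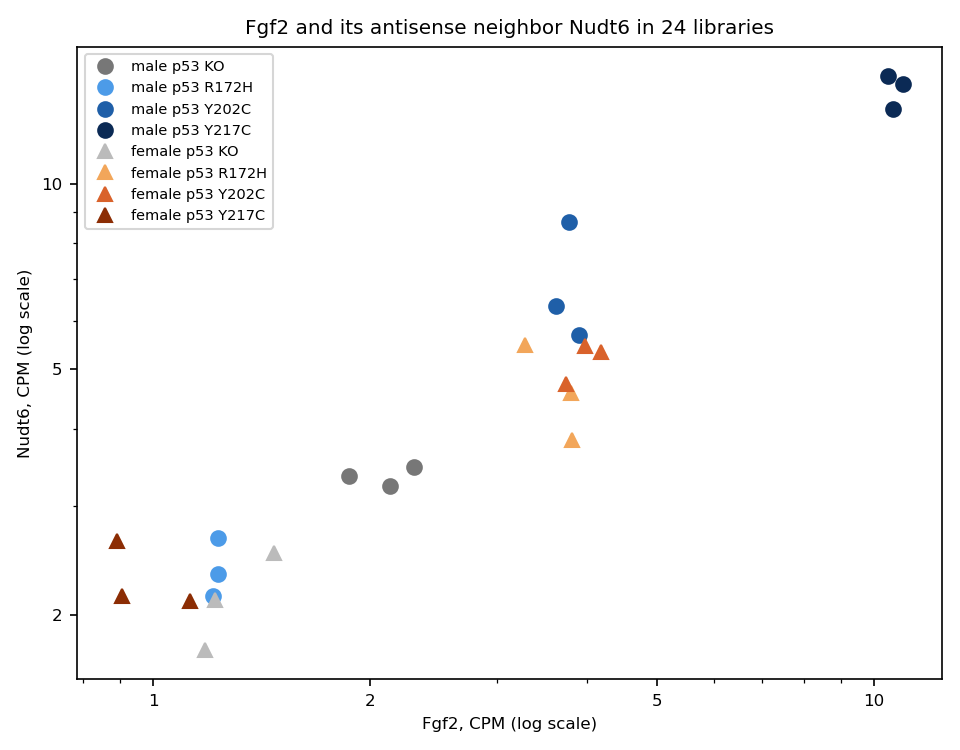
Fgf2 (horizontal axis) and Nudt6 (vertical axis) in CPM on log scales, 1 point per library, circles for male and triangles for female lines. The 3 male Y217C libraries stand at the top right with Fgf2 at 10.5 to 11.0 CPM, and the female Y217C, male R172H and female KO libraries gather at the lower left.

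The genes around the locus were examined next, since neighbors can change together. Of the 15 genes of the table that start within 1 Mb of Fgf2, 12 are neither Fgf2, Nudt6 nor Spry1. In male Y217C against KO their median log2 difference was -0.10, and 4 of 12 were above 0. The largest difference was that of the predicted gene Gm11549, at 2.18 CPM in male Y217C and 0.113 in male KO (log2 4.19). Next was Cetn4, a centrin gene whose start lies upstream of that of Fgf2, at 5.06 and 1.53 CPM (log2 1.73). Cetn4 also rose in male Y202C (log2 1.77 ± 0.21, adjusted p = 5.9e-08), female R172H (1.5 ± 0.23, adjusted p = 2.91e-06), female Y202C (2.17 ± 0.23, adjusted p = 1.21e-08) and female Y217C (1.29 ± 0.23, adjusted p = 5.11e-05), and was at -0.41 ± 0.22 in male R172H (adjusted p = 0.145). The medians of the 12 neighbors lay between -0.25 and 0.06 in the 5 tested comparisons. Spry1 starts 220 kb beyond the end of Nudt6 and moved opposite to Fgf2 in 3 of the 6 comparisons with KO: it was lower in male Y217C, and it rose in male R172H and female Y217C, where Fgf2 fell.

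**Figure D2:**
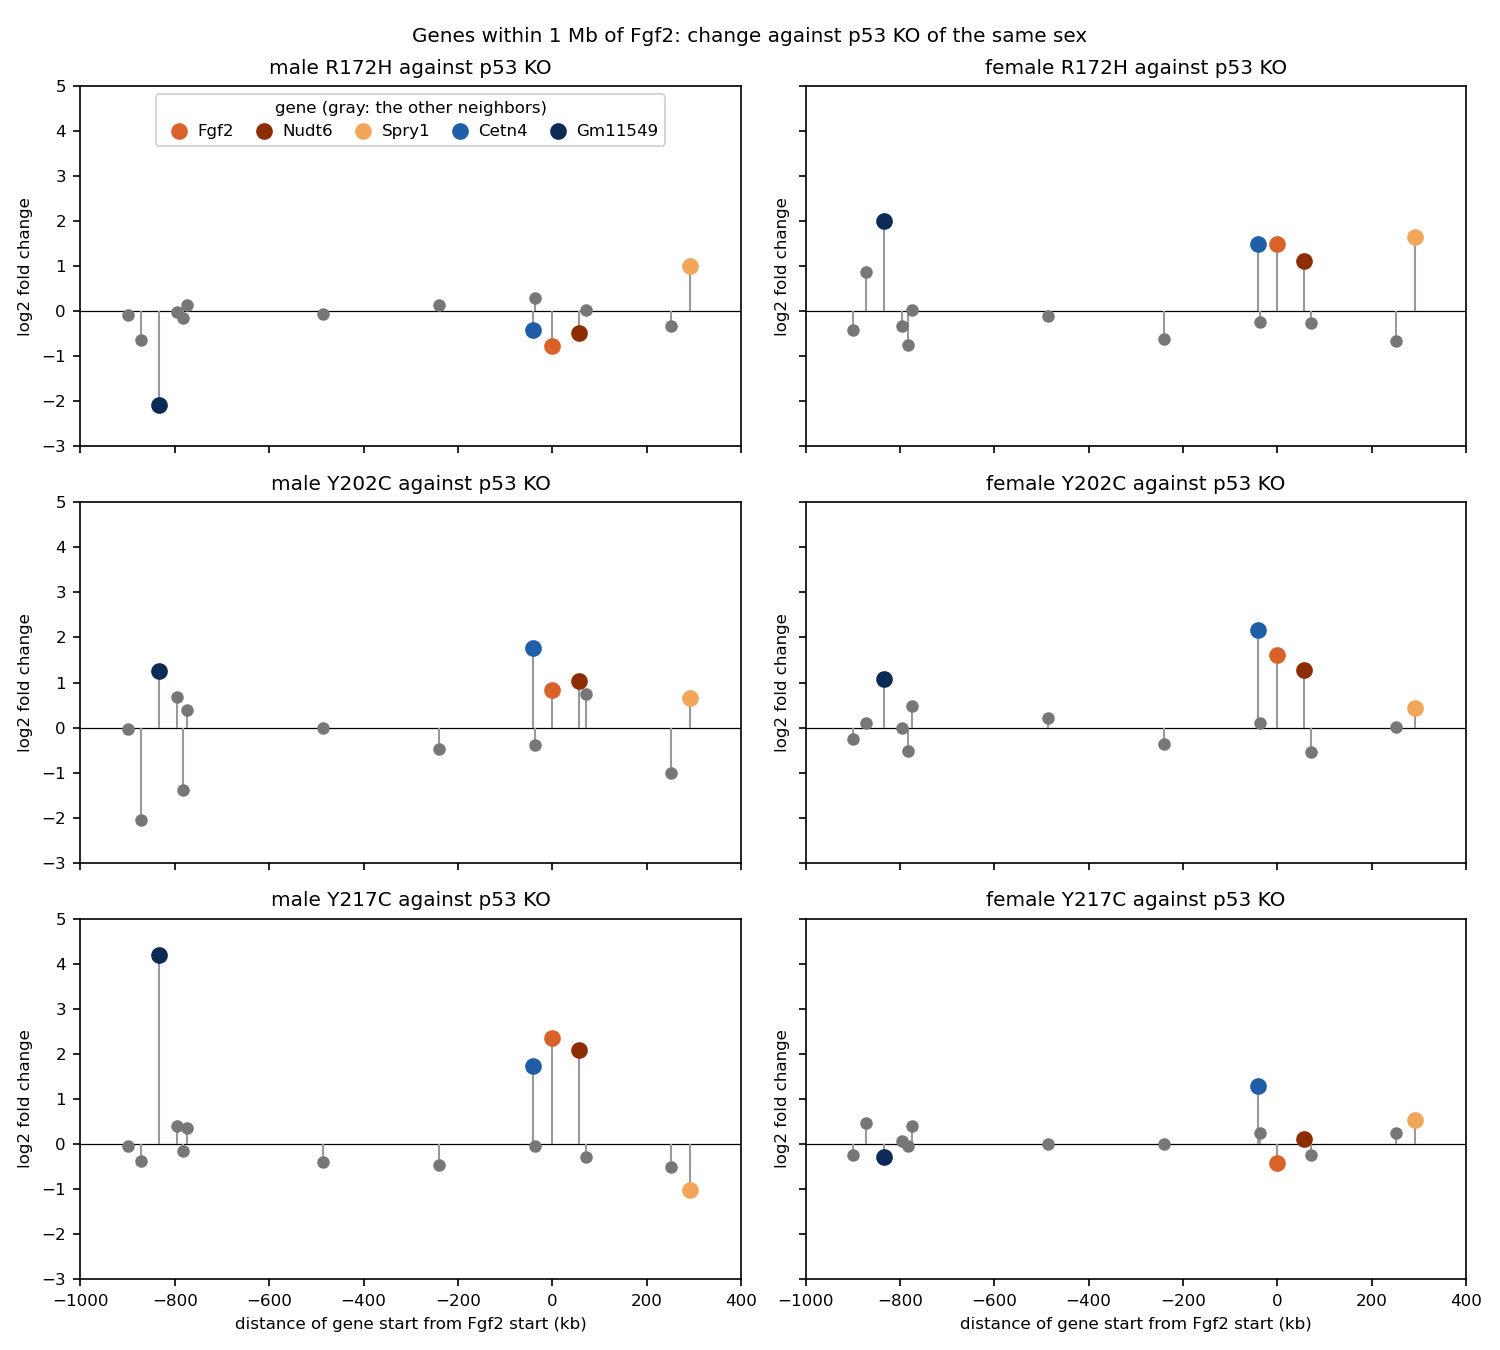
Log2 fold change against p53 KO of the same sex (vertical axis) for the 15 genes within 1 Mb of Fgf2, by the distance of each gene's start from that of Fgf2 in kb (horizontal axis), 1 panel per mutant line. Fgf2 and Nudt6 stand above 0 together in 4 panels, with Cetn4 above 0 in the same 4 and in female Y217C.

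The other ligands differed from each other: Fgf1 shared its highest line with Fgf2, and Fgf7 was lowest there. Fgf1, an FGF that like Fgf2 lacks a classical signal peptide, was near the detection limit outside male Y217C and male Y202C. It reached 1 CPM in no library of another line (at most 0.763), so that male Y217C alone brought it past the filter on low values. It was at 3.48, 3.31 and 3.98 CPM in male Y217C and at 0.121, 0.167 and 0.122 in male KO, a described difference of 4.69 ± 0.44 on the log2 scale. In male Y202C, at 0.330, 0.677 and 0.763 CPM, it rose 4.16-fold (log2 2.06 ± 0.46, adjusted p = 0.000367). All 12 female libraries held 0 to 12 counts of Fgf1, and no female mutant line passed the test against KO. The female fold changes of 1.55 to 3.02 rest on those few counts, and 1 library decided the side of the threshold in R172H and Y217C: without female KO replicate 2 the R172H call was made (adjusted p = 0.0248), as was that of Y217C without female Y217C replicate 1 (0.0461). DESeq2 and limma also called Fgf1 in female R172H (adjusted p = 0.0166 and 0.0253). Male KO was above female KO by 3.76-fold (adjusted p = 0.0427), but leaving out any of 5 of the 6 libraries, all but female KO replicate 2, lost that call (adjusted p from 0.0544 to 0.194).

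Fgf7 was far more abundant than Fgf2 per length, 9.95 to 450-fold above Fgf2 in CPM per kilobase of exon. It was highest in female R172H, at 342, 373 and 330 CPM against 162, 167 and 164 CPM in female KO, a 2.12-fold rise (log2 1.09 ± 0.08, adjusted p = 4.3e-11). It was lowest in male Y217C, at 52.6, 50.5 and 50.5 CPM against 143, 162 and 158 CPM in male KO, which is a described difference of -1.59 ± 0.09 on the log2 scale. The line with the most Fgf2 was therefore the line with the least Fgf7. Male Y202C, at 92.4, 104 and 121 CPM, fell 1.46-fold below male KO (adjusted p = 2.77e-06). Male R172H was at 129, 140 and 137 CPM, female Y202C at 167, 140 and 177, and female Y217C at 195, 171 and 191. These 3 lines did not pass the test against KO (adjusted p = 0.0661, 0.798 and 0.0716), though limma called male R172H (adjusted p = 0.00573) and female Y217C (0.0252). Leaving out male KO replicate 1 also brought male R172H past the threshold (adjusted p = 0.0416), as leaving out female Y217C replicate 2 did for female Y217C (0.0348). The summed fibroblast or pericyte markers were likewise highest in female R172H, at 41795 to 48779 CPM against 23753 to 25698 in female KO, and reached 17472 to 18090 CPM in male Y217C and 8756 to 10657 in male Y202C against 27492 to 32967 in male KO. These sums were mostly Col1a1, Col1a2 and Col3a1, and single markers differed. Pdgfrb was at a mean of 786 CPM in male Y217C against 267 in male KO, while Dcn, Lum and Twist1 were lower there. In male Y202C the means of Dcn (4.86 against 2.70 CPM), Twist1 (64.9 against 53.5) and Lum were above male KO, and Pdgfrb was slightly below. The part of these markers in the Fgf7 levels was not tested.

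Among the other listed genes Spry1 had the highest Pearson r with Fgf7 (0.89 over the 8 line means of log2 CPM, a description over lines that share sex pools), while by Spearman rho over the 24 libraries Fgfr2 (0.649) and Spry1 (0.643) were about level. The 250 bases before the start of each are shown because the start regions of the pair differ in CpG content. Capitals mark CpG dinucleotides.
Spry1, chr3:37639697-37639946, plus strand: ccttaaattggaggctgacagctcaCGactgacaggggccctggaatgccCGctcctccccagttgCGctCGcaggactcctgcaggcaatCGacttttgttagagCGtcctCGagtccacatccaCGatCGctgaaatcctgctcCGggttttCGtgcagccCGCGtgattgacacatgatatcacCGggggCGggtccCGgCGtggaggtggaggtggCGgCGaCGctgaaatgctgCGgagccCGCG
Fgf7, chr2:126034408-126034657, plus strand: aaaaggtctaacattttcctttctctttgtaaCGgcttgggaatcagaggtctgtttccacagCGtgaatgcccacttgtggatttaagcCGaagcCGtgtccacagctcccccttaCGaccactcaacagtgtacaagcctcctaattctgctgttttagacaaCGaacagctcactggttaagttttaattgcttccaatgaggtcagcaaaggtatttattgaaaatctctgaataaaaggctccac
The Spry1 stretch held 23 CpG and was 62.4% G and C, and the Fgf7 stretch held 6 CpG at 43.6%. A GC box was found in the windows of Fgf2, Nudt6 and Spry1 and in both windows of Fgfr3, and those of Fgf7, Fgfr2 and Spry2 held none. No window of the 7 genes matched an AP-1 site (TGANTCA, in 7.81% of all windows), an ETS site (CCGGAAG, 8.86%) or a TATA box (TATAAA, 13.6%), with both strands searched. An androgen receptor half-site (AGAACA, 19%) was not matched either. This says only that these letters are absent from these windows. The half-site that the authors placed upstream of Fgf2 came from a motif search over wider regions.

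Among the receptors, Fgfr1 was the main transcript. Per kilobase of exon its level was above that of Fgfr2 in 24 of 24 libraries, by 5.53 to 19.8-fold, and Fgfr2 was above Fgfr3 in 24 of 24, by 7.34 to 25.3-fold. The order was the same with the longest transcript of each gene as its length (4.64 to 16.6-fold and 10.2 to 34.9-fold). Fgfr1, the receptor through which Fgf2 is known to signal in many cell types, varied little between lines: its highest line mean was 1.56-fold its lowest, where the median of that ratio over all genes was 2.02. Male KO libraries were at 333, 341 and 352 CPM and male R172H and Y202C overlapped them at 337 to 353 and 324 to 370 CPM (adjusted p = 0.766 and 0.654). Male Y217C was at 468, 435 and 461 CPM, a described difference of 0.41 ± 0.05 on the log2 scale. Female KO, at 431, 454 and 445 CPM, was above male KO by 1.30-fold (adjusted p = 3.48e-06). Fgfr1 fell from there to 290, 321 and 300 CPM in female Y202C (1.46-fold, adjusted p = 1.8e-09) and to 344, 341 and 355 CPM in female Y217C (1.28-fold, adjusted p = 2.69e-06). Female R172H, at 489, 454 and 478 CPM, was not past the threshold (adjusted p = 0.101), though DESeq2 called it (0.032), as did edgeR with the size factors of DESeq2 (0.0471) or with only the compared lines fitted (0.0402).

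Fgfr2 stood apart in 1 line. The male Y202C libraries were at 19.5, 19.2 and 20.9 CPM against 45.6, 49.2 and 51.1 CPM in male KO, a 2.45-fold fall (log2 -1.29 ± 0.08, adjusted p = 6.74e-13). The other 21 libraries, of 7 lines, lay between 45.6 and 72.1 CPM. Male R172H, at 54.0, 66.8 and 65.1 CPM, rose 1.27-fold over male KO (adjusted p = 0.000972). Female R172H, at 72.1, 62.1 and 59.4 CPM against 50.3, 58.8 and 58.1 CPM in female KO, was higher by 1.16-fold (adjusted p = 0.019), a call lost without female KO replicate 1 (adjusted p = 0.136) or female R172H replicate 1 (0.176). Female Y202C and Y217C did not pass (adjusted p = 0.0832 and 0.428), and female Y202C was called without female KO replicate 1 (adjusted p = 0.0216).

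Fgfr3, the least abundant receptor, also had its lowest level in male Y202C. The libraries there were at 0.821, 0.718 and 0.702 CPM (46 to 82 counts) against 2.86, 2.11 and 2.51 CPM in male KO, a 3.31-fold fall (log2 -1.73 ± 0.17, adjusted p = 3.8e-09). The female lines moved both ways. Fgfr3 rose from 2.94, 2.65 and 2.98 CPM in female KO to 4.93, 3.28 and 4.15 CPM in female R172H (1.44-fold, adjusted p = 0.00388) and to 4.65, 4.54 and 4.22 CPM in female Y202C (1.56-fold, adjusted p = 0.00081). It fell to 1.72, 1.60 and 1.42 CPM in female Y217C (1.81-fold, adjusted p = 9.65e-05). Male R172H, at 2.36, 2.70 and 1.82 CPM, and male Y217C, at 2.74, 2.68 and 2.76 CPM, overlapped male KO. The summed level of the 9 astrocyte markers was also lowest in male Y202C, at 197 to 207 CPM against 340 to 366 in male KO. The sum was led by Gja1 (mean 81.0 against 187 CPM) and Sox9 (80.0 against 151). Slc1a3, Aldoc, Gfap and S100b were also lower in mean than in male KO. Aldh1l1 (28.4 against 0.629 CPM), Aqp4 (1.77 against 0.113) and Slc1a2 (1.79 against 0.573) were higher. The part of these markers in the fall of Fgfr3 was not tested. In female Y202C the summed level was 319 to 363 CPM against 346 to 373 in female KO.

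**Figure D3:**
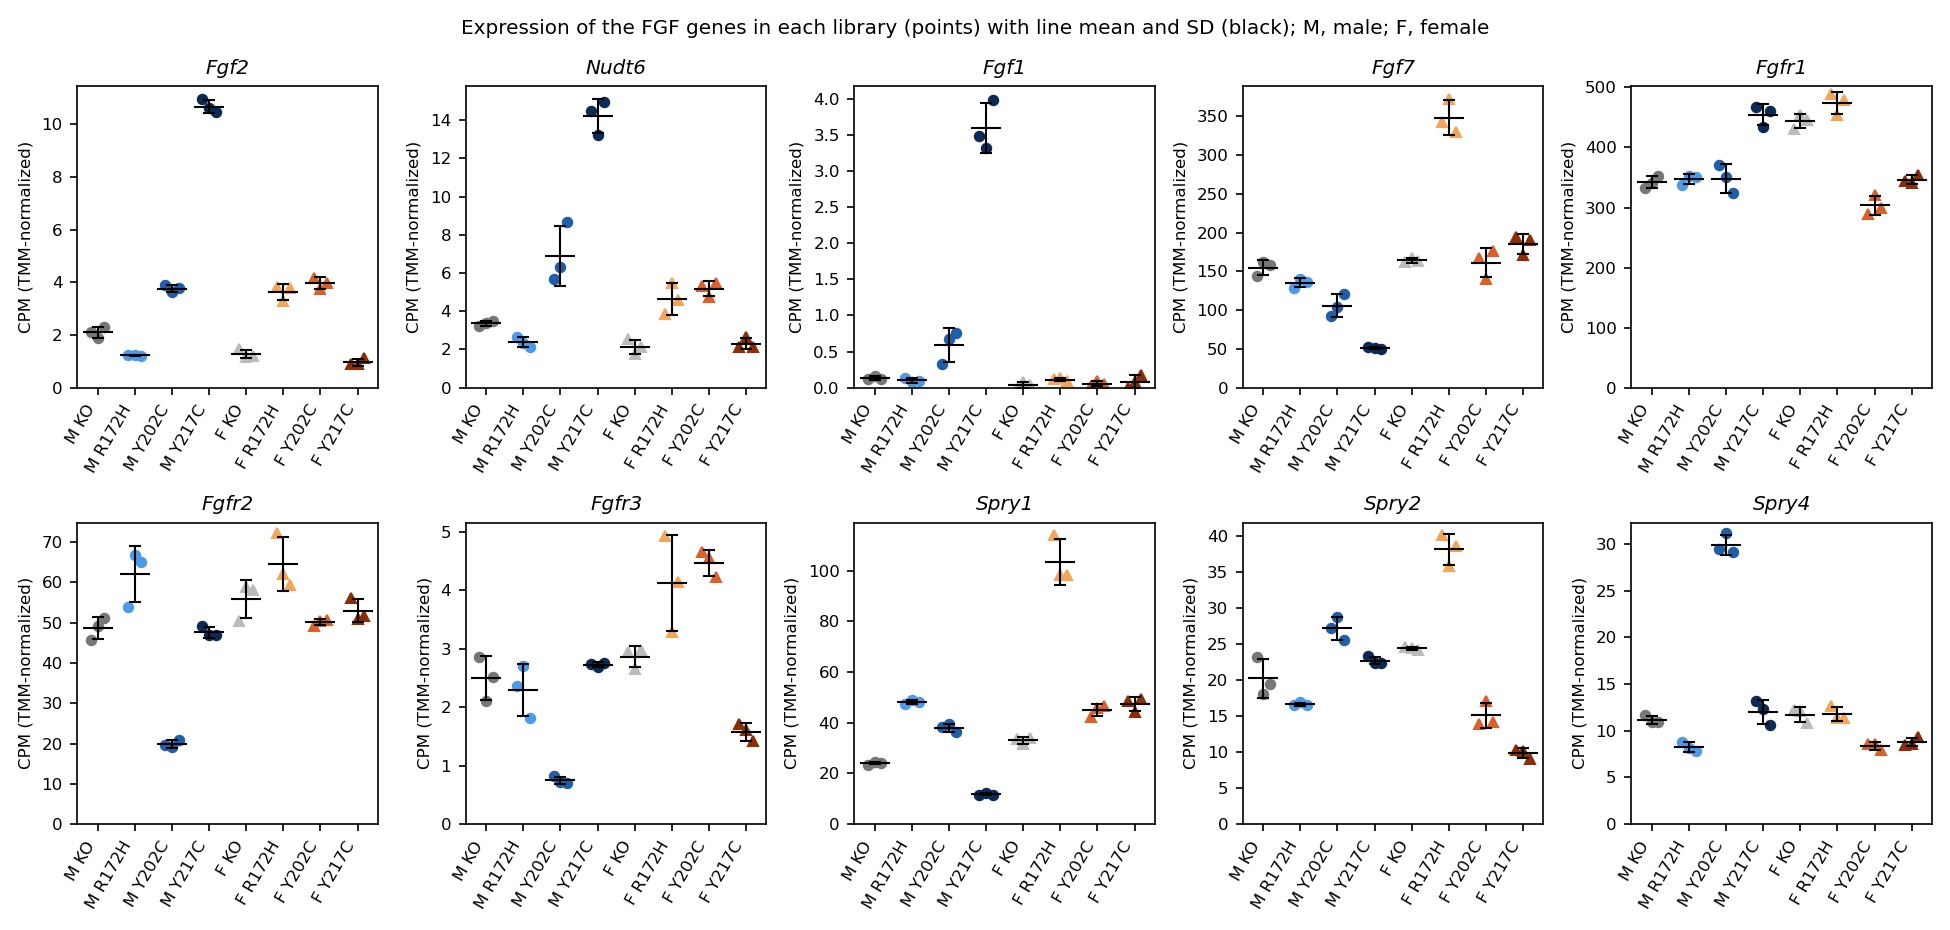
CPM of each of the 10 genes in the 24 libraries (points), with the mean and SD of each line in black, on linear axes from 0. Fgf2, Nudt6 and Fgf1 peak in male Y217C, Fgf7 and Spry1 in female R172H, and male Y202C has the highest Spry4 and the lowest Fgfr2 and Fgfr3.

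Spry1, a Sprouty inhibitor of the ERK route, was past the test in all 5 tested mutant lines, and each time it rose. Female R172H was at 114, 98.1 and 98.1 CPM against 33.7, 31.5 and 34.1 CPM in female KO (3.12-fold, log2 1.64 ± 0.06, adjusted p = 4.56e-17). Male R172H was at 47.6, 49.0 and 48.2 CPM against 23.5, 24.7 and 24.2 CPM in male KO (2.0-fold, log2 1.00 ± 0.06, adjusted p = 4.63e-12). The rises in male Y202C (1.58-fold, adjusted p = 8.38e-10), female Y202C (1.36-fold, adjusted p = 7.61e-07) and female Y217C (1.44-fold, adjusted p = 1.11e-07) were smaller, with libraries at 36.4 to 39.6, 42.1 to 46.8 and 44.3 to 49.5 CPM. Male Y217C alone was below its KO, at 11.7, 12.2 and 11.7 CPM (log2 -1.03 ± 0.06, no test). The line with the highest Fgf2 thus held the lowest Spry1.

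Spry2 and Spry4 went their own ways. Spry2 rose in female R172H to 40.1, 35.9 and 38.6 CPM from 24.6, 24.4 and 24.2 in female KO (1.56-fold, adjusted p = 1.9e-07) and in male Y202C to 27.3, 28.8 and 25.5 CPM from 23.3, 18.1 and 19.4 in male KO (1.35-fold, adjusted p = 5.62e-05). It fell in female Y217C to 10.3, 10.1 and 9.01 CPM (2.49-fold, log2 -1.31 ± 0.09, adjusted p = 6.46e-12) and in female Y202C to 14, 17.2 and 14.2 CPM (1.62-fold, adjusted p = 1.18e-07). In female Y217C Spry1 and Spry2 therefore moved in opposite directions. Male R172H, at 16.5, 16.9 and 16.6 CPM, was lower by 1.21-fold (adjusted p = 0.00918), a call lost without male KO replicate 1 (adjusted p = 0.104).

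Spry4 varied little in most lines and was high in 1. Male Y202C stood at 29.5, 31.1 and 29.1 CPM against 11.6, 10.9 and 11.0 CPM in male KO (2.68-fold, log2 1.42 ± 0.08, adjusted p = 5.47e-14), and the other 21 libraries lay between 7.82 and 13.2 CPM. Smaller falls were called in male R172H (1.35-fold, adjusted p = 0.000123), female Y202C (1.4-fold, adjusted p = 1.11e-05) and female Y217C (1.34-fold, adjusted p = 0.000102). Male Y202C is thus the line in which all 3 Sprouty genes rose while Fgfr2 and Fgfr3 fell. Per kilobase of exon Spry2 was above Spry4 in all 24 libraries (2.0 to 7.74-fold), whereas Spry1 was above Spry2 in 15 of 24 by the exonic length and in 18 of 24 by the longest transcript.

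Read by comparison, the listed genes were called about as often as, or somewhat more often than, genes at large, in which the lines differ widely. In male R172H against KO, 2 of 10 rose (Fgfr2 and Spry1) and 4 fell (Fgf2, Nudt6, Spry2 and Spry4), where 40.7% of all genes were called, 20.2% higher and 20.5% lower. In male Y202C 6 rose and 3 fell, against 73% of all genes (37.6% higher, 35.4% lower). In female R172H 7 rose and none fell by the edgeR test, against 69.7% of all genes called, 34.4% higher and 35.3% lower. The 3 genes not past the threshold there, Fgf1, Fgfr1 and Spry4, had fitted changes above 0, so that the count of falls at an unadjusted p under 0.05 was also 0. In female Y202C 4 rose (Fgf2, Nudt6, Fgfr3 and Spry1) and 3 fell (Fgfr1, Spry2 and Spry4), against 68.6% (34.3% in each direction). In female Y217C only Spry1 rose and 5 fell (Fgf2, Fgfr1, Fgfr3, Spry2 and Spry4), against 56.7% (28% higher, 28.7% lower). In male Y217C, by description, the libraries of 4 genes lay above and those of 2 below male KO without overlap, where 77% of all genes did not overlap (38.1% higher, 38.9% lower). Comparisons of the same sex share their KO libraries.

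**Figure D4:**
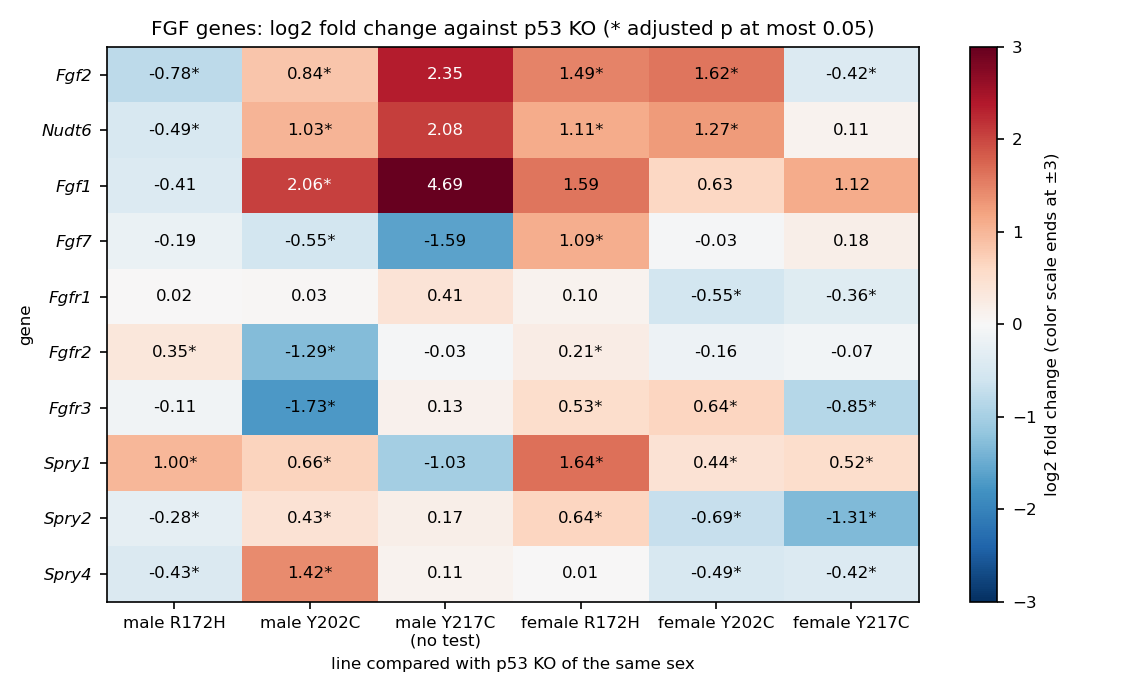
Log2 fold change of the 10 genes (rows) against p53 KO of the same sex in the 6 mutant lines (columns), with a star where the adjusted p of edgeR's quasi-likelihood test is at most 0.05. The male Y217C column carries no test. The Spry1 row is above 0 in 5 columns and at -1.03 in male Y217C, and the female R172H column holds no value below 0.

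Male and female lines with the same p53 state were compared next, with the limit that sex and culture cannot be told apart. Lines with the same mutation also differed in Trp53 level, as given above, and its part in these differences was not tested. In KO, 3 of 10 genes were higher in the male line (Fgf2, Nudt6 and Fgf1) and 3 were lower (Fgfr1, Spry1 and Spry2), where 31.1% of all genes were called, 17.2% higher and 13.8% lower. Male KO held 1.62-fold more Fgf2 (adjusted p = 0.000102) and 1.57-fold more Nudt6 (adjusted p = 0.00251). The Spry2 call, 1.21-fold, was lost without male KO replicate 2 (adjusted p = 0.103) or replicate 3 (0.0605). Fgfr2 was not called in KO (adjusted p = 0.0589), but was without female KO replicate 1 (0.0201), with limma (0.012), with DESeq2 (0.0489) and with only the compared lines fitted (0.0229). In R172H 8 of 10 genes were lower in the male line and none was higher, against 62% of all genes called, 32.4% higher and 29.7% lower. The largest of these differences were in Fgf2 (2.97-fold, adjusted p = 7.97e-11), Fgf7 (2.58-fold, adjusted p = 8.17e-13), Spry2 (2.29-fold, adjusted p = 7.2e-12) and Spry1 (2.14-fold, adjusted p = 7.96e-14). The other 2 genes, Fgf1 and Fgfr2, overlapped between the sexes and gave adjusted p = 0.9 and 0.528 by edgeR, with no call in the higher direction at an unadjusted p under 0.05.

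In Y202C 5 genes were higher and 4 lower in the male line, where 75.3% of all genes were called, 37.7% in each direction. Fgf2 was the gene that was not past the threshold (log2 -0.08 ± 0.12, adjusted p = 0.564), with libraries of both sexes between 3.62 and 4.18 CPM. Around that like level the receptors and inhibitors differed: Fgfr3 was 5.94-fold lower (adjusted p = 2.5e-12) and Fgfr2 2.52-fold lower (adjusted p = 3.15e-13) in the male line, and Spry4 was 3.57-fold higher (adjusted p = 5.31e-16). Nudt6 was 1.33-fold higher in the male line (adjusted p = 0.0184), a call lost without male Y202C replicate 3 (adjusted p = 0.199), without female Y202C replicate 2 (0.071) and with limma (0.112). In Y217C, with Fgf2, Nudt6 and Fgf1 left out and the same male libraries in use that chose the list, 4 of 7 genes were higher (Fgfr1, Fgfr3, Spry2 and Spry4) and 2 lower (Fgf7 and Spry1) in the male line, where 68% of all genes were called, 33.4% higher and 34.6% lower. Spry1 was 4.01-fold lower (adjusted p = 1.39e-18) and Fgf7 3.63-fold lower (adjusted p = 1.95e-15) in male Y217C, and Spry2 was 2.31-fold higher (adjusted p = 7.49e-12). Fgf1 held 256 to 297 counts in the male and 0 to 12 in the female libraries, as a description.

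In R172H and Y202C the effect of the mutation differed between the male and female lines for most listed genes, as for most genes at large. Sex and culture cannot be told apart here, and Trp53 levels also differed. In R172H the interaction, the male log2 change minus the female one, was past the threshold in 7 of 10 genes and below 0 in all 7, where 58% of all genes were called, 29.7% above and 28.3% below 0. It was -2.27 ± 0.17 for Fgf2 (adjusted p = 7.92e-11) and -1.61 ± 0.22 for Nudt6 (adjusted p = 1.34e-06), which fell in the male and rose in the female line. In Y202C it was past the threshold in 8 of 10 genes, 4 in each direction, against 68% of all genes (34.5% above 0, 33.5% below). Spry4 (1.91 ± 0.11, adjusted p = 2.67e-13) and Fgfr3 (-2.37 ± 0.23, adjusted p = 3.31e-09) had the largest values, and each moved in opposite directions in the 2 sexes. In Y217C the described interaction was 2.76 for Fgf2 and 1.97 for Nudt6.

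The wider route was read from 102 further genes in 9 groups, of which 84 were in the table. Of these 84, 34 rose and 19 fell in male R172H, 33 and 29 in male Y202C, 32 and 34 in female R172H, 30 and 36 in female Y202C, and 19 and 40 in female Y217C. As a share of those tested this is 63.1%, 73.8%, 78.6%, 78.6% and 70.2%, where 40.7%, 73%, 69.7%, 68.6% and 56.7% of all genes were called in the same order. The median log2 changes were between -0.18 and 0.10, against medians between -0.01 and 0.01 over all genes. Only 4 of 15 other FGF ligands were in the table, and they were low. Fgf23, a hormone of phosphate balance, rose from 0.0540 to 1.71 CPM in female R172H (adjusted p = 9.66e-10) and to 0.850 in female Y202C (adjusted p = 1.44e-07). Fgf18 fell from 3.69 to 0.300 CPM in male Y202C (adjusted p = 1.61e-12), and Fgf21, a metabolic hormone, from 7.23 to 0.680 CPM in female Y202C (adjusted p = 3.49e-12). Fgf9, a ligand of Fgfr3, rose in male Y202C (log2 2.02 ± 0.26, adjusted p = 2.44e-07), and it fell in the 3 female mutant lines by 1.68 to 2.72 on the log2 scale.

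Fgfrl1, a receptor without a kinase domain, was at 220 ± 16.4 CPM in male Y217C and 42.5 ± 1.78 in male KO (SD, n = 3, no test), whereas it fell in female Y202C and Y217C. Among 22 heparan sulfate genes, whose products hold FGFs at the cell surface, 10 rose and 5 fell in male R172H, 5 and 11 in male Y202C, 14 and 5 in female R172H, 12 and 8 in female Y202C, and 6 and 10 in female Y217C. In the same order 68.2%, 72.7%, 86.4%, 90.9% and 72.7% of these 22 genes were called, against 40.7%, 73%, 69.7%, 68.6% and 56.7% of all genes, shares that also stand behind the smaller groups below. The sulfotransferase gene Hs3st1 rose from 0.0949 to 6.92 CPM in female R172H (adjusted p = 1.09e-15). Sulf2, which removes sulfate groups from heparan sulfate, fell from 124 to 23.8 CPM in male Y202C (adjusted p = 3.46e-16) and rose from 109 to 256 CPM in female R172H (adjusted p = 3.24e-11). The syndecan Sdc2 rose in all 5 tested lines, by 0.21 to 1.4 on the log2 scale. Of the 12 adaptors and relays, 5, 10, 8, 7 and 7 were called in these 5 lines in the same order, led by Gab2 in male Y202C (log2 1.83 ± 0.08, adjusted p = 8.47e-16), and of the 11 kinases and RAS genes 5, 5, 8, 10 and 5 were called. Of the 2 intracellular FGF homologs present, 0, 1, 1, 2 and 2 were called, and Fgf14 rose to 1.99 CPM in female Y202C.

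Feedback genes other than the 3 listed Sprouty genes were counted next. Of 13, 2 rose and 8 fell in female R172H, 1 and 7 in female Y202C, and 2 and 8 in female Y217C, against 4 and 4 in male R172H and 4 and 5 in male Y202C. Over all genes, 34.4% were called higher and 35.3% lower in female R172H, 34.3% each way in female Y202C, and 28% and 28.7% in female Y217C. The ERK phosphatase gene Dusp6, named after its values were seen as a standard readout of FGF signaling, was at 87.1 ± 4.13 CPM in female KO and fell to 44.1 ± 3.0, 55.6 ± 3.70 and 48.9 ± 2.19 CPM in female R172H, Y202C and Y217C (adjusted p = 2.71e-11, 4.45e-08 and 1.32e-09). Dusp5 fell in the same 3 lines (log2 -0.99, -0.87 and -0.79). In male R172H and Y202C neither passed the test, with Dusp6 at -0.03 and 0.06 on the log2 scale (adjusted p = 0.792 and 0.487). A call in the female lines and none in the male lines does not show a difference between the sexes, whose test is not reported here. Spry1 therefore rose in 3 female lines in which Dusp5 and Dusp6 fell. Dusp9 fell in 4 of the 5 tested lines, and Dusp4 fell most in female Y217C, from 18.5 to 3.16 CPM (log2 -2.56 ± 0.12, adjusted p = 3.1e-14).

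ERK target genes moved in both directions. Of 13, 8 rose and 4 fell in male R172H, 9 and 3 in male Y202C, 3 and 6 in female R172H, 3 and 7 in female Y202C, and 2 and 9 in female Y217C. The share of all genes called higher and lower was 20.2% and 20.5% in male R172H, 37.6% and 35.4% in male Y202C, and as given for the feedback genes in the female lines. A difference between the sexes in these counts was not tested. Egr1, an immediate early gene, rose in all 5 tested lines by 0.65 to 1.48 on the log2 scale, and Etv4, an ETS factor induced by FGF, fell in all 5 by 0.26 to 1.59. Its relative Etv5 rose in male Y202C (log2 1.26 ± 0.06, adjusted p = 8.97e-15). The cyclin D1 gene Ccnd1 rose in male Y202C from 231 to 730 CPM (adjusted p = 2.12e-18) and fell in female Y202C from 353 to 158 CPM (adjusted p = 2.73e-15). Among the 6 adhesion partners of the receptors, 5, 6, 6, 5 and 5 were called, and Flrt2 fell in all 5 lines, most in female R172H, from 405 to 63.8 CPM (adjusted p = 7.15e-16).

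**Figure D5:**
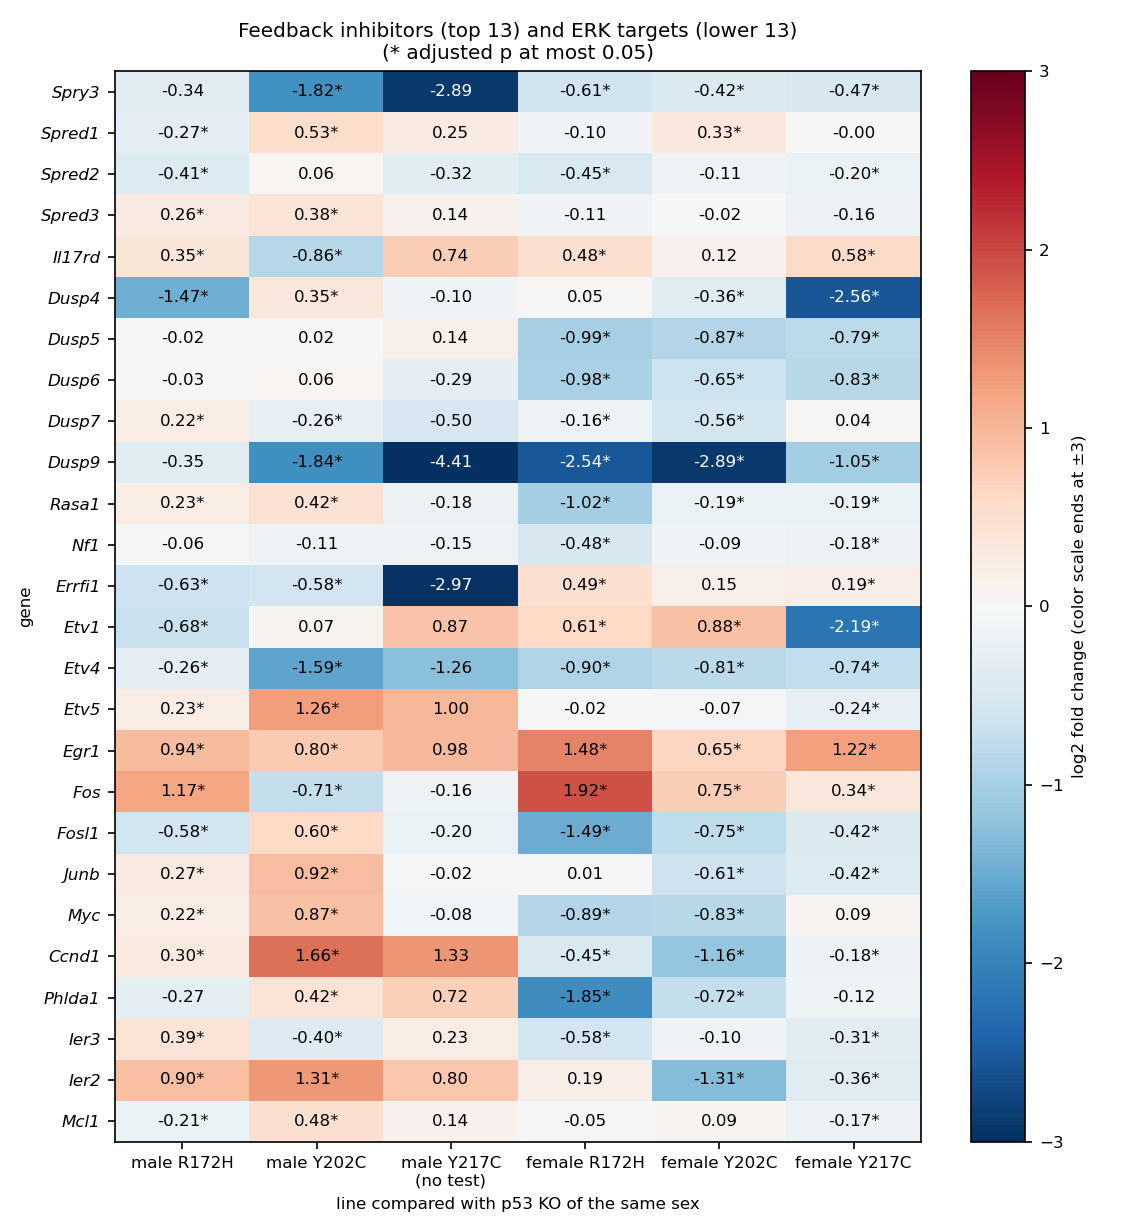
Log2 fold change of 13 feedback inhibitors and 13 ERK target genes (rows) against p53 KO of the same sex in the 6 mutant lines (columns), with a star where the adjusted p of edgeR's quasi-likelihood test is at most 0.05. The male Y217C column carries no test. Dusp5 and Dusp6 are starred and below 0 in the 3 female columns, and Egr1 is above 0 in all 6.

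The genes whose pattern was most like that of Fgf2 over the 8 line means, by Pearson r of log2 CPM, were Rdh10 (0.987), which oxidizes retinol, Rab32 (0.985), a small GTPase, Ces1g (0.981), Nudt6 (0.976) and Tctn2 (0.970), a gene of the ciliary transition zone. Nudt6 was the 4th of all genes by that measure and the 29th by Spearman rho over the 24 libraries (0.896), and both measures include the male Y217C values by which the pair was chosen. Of the listed genes Fgf1 was next (r = 0.79), but it was the 646th of all genes by Pearson r. By Spearman rho it was the 2267th (0.487). Male Y217C, the line that chose Fgf2, alone brought Fgf1 past the filter on low values, so that its likeness to Fgf2 is not independent of that choice. Fgf7 (r = -0.51, rho = -0.39) and Spry1 (r = -0.42, rho = -0.31) ran against Fgf2. Fgfr2 and Fgfr3 ran together over the line means (0.80), and Spry4 ran against both (-0.89 and -0.70). By Spearman rho over the 24 libraries these values were weaker, at 0.32, -0.46 and -0.18. Male Y202C had the lowest means of Fgfr2 and Fgfr3 (19.9 and 0.747 CPM) and the highest of Spry4 (29.9 CPM). These values describe 8 lines that share 2 sex pools and carry no test.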

How the data were processed

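Polyadenylated RNA of 24 libraries (8 lines, 3 replicates each) was sequenced. The authors aligned reads with STAR 2.5.1a and counted them per gene with featureCounts, and deposited raw counts for 14427 genes, each above 1 CPM in 3 or more libraries. Genome build was GRCm38. Strand use is not given in the sources used here. GENCODE M21 named 14350 of the IDs. Here the counts were fitted over all 24 libraries with 1 mean per line, TMM factors and edgeR's quasi-likelihood test (edgeR 4.0.16, R 4.3.3), with Benjamini-Hochberg adjustment over all 14427 genes and a threshold of 0.05. Alternatives used limma 3.58.1 (quality weights), DESeq2 1.42.0, other filters, other thresholds, a replicate block and each library left out. The fit was tested on simulated data. Log2 CPM used a prior count of 2.

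Every listed gene was named. Of each further group up to 4 genes per comparison were named, ranked by the size of a called rise or fall, with a minimum of 10 counts required throughout the higher line, together with the genes within 1 Mb of Fgf2 and up to 5 genes with the most similar pattern. The members and lists were chosen with earlier results of these data known. Counts limit the precision for Fgf1, with at most 3 counts in 3 libraries. Intervals cover spread between platings only.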

Additional observations from a re-analysis of the deposited data

Results flagged for a closer look

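These results were flagged because the same mutation changed a gene differently in the male and female line by a test of the difference itself. That test was the interaction in edgeR's quasi-likelihood test, male log2 change minus female log2 change, with adjusted p at most 0.05. By that rule 7 of 10 listed genes were called in R172H and 8 of 10 in Y202C. Such calls were common, with 58% of all genes called in R172H and 68% in Y202C. In R172H the values were -2.27 for Fgf2, -1.61 for Nudt6, -1.28 for Fgf7, -0.64 for Fgfr3, -0.64 for Spry1, -0.92 for Spry2 and -0.44 for Spry4. Fgf2 and Nudt6 fell in the male and rose in the female line, and Spry1 rose in both, more in the female. In Y202C they were -0.77 for Fgf2, -0.52 for Fgf7, 0.57 for Fgfr1, -1.14 for Fgfr2, -2.37 for Fgfr3, 0.22 for Spry1, 1.12 for Spry2 and 1.91 for Spry4. Fgfr3 fell in the male and rose in the female line, and Spry2 and Spry4 did the reverse. Fgf2 rose in both Y202C lines, to levels that did not differ past the threshold (male minus female log2 -0.08, adjusted p = 0.564). Its level in male KO was 1.62-fold that in female KO (adjusted p = 0.000102, edgeR's quasi-likelihood test for both). The R172H value for Fgfr3 was lost without male R172H replicate 3 or female R172H replicate 1 (adjusted p = 0.0535 and 0.0628). The Y202C value for Spry1 was lost without male KO replicate 1, female KO replicate 1 or 3, male Y202C replicate 2 or female Y202C replicate 1 (adjusted p from 0.0607 to 0.091). Each sex was 1 pool of pups, so that sex and culture cannot be told apart. The compared mutant lines also differed in Trp53 level. No group of 3 libraries was tested for single outlying libraries.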

How the results depend on the processing

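Over 108 single gene comparisons and 1730 alternatives, 1636 kept direction and side of the threshold, 56 lost the call, 25 gained it and 13 changed sign. Requiring an absolute log2 change above 0.5 lowered the listed genes called from 6 to 2 in male R172H, from 6 to 3 in female Y217C and from 6 to 3 in male against female KO, and the wider route from 53 to 15 in male R172H, 62 to 36 in male Y202C, 66 to 40 in female R172H, 66 to 42 in female Y202C and 59 to 22 in female Y217C, since that rule drops small changes by construction. Leaving out 1 library gave 5 to 6, 9, 6 to 8, 7 to 8 and 5 to 6 listed genes and 43 to 53, 55 to 59, 63 to 66, 63 to 66 and 52 to 59 route genes in these 5 comparisons in that order. The sign changes were all in values not called, and leaving out 1 library gave ranges of -0.24 to 0.024 for Fgfr3 in male R172H (above 0 without male R172H replicate 3), -0.020 to 0.077 for Fgfr1 in male Y202C (below 0 without male Y202C replicate 1), -0.045 to 0.039 for Spry4 in female R172H (below 0 without female KO replicate 3 or female R172H replicate 1), -0.078 to 0.067 for Fgf7 in female Y202C (above 0 without female Y202C replicate 2), -0.0095 to 0.25 for Nudt6 in female Y217C (below 0 without replicate 2 of either line), and, male against female R172H, -0.40 to 0.055 for Fgf1 (above 0 without replicate 2 of either line) and -0.12 to 0.032 for Fgfr2 (above 0 without replicate 1 of either line). Fgfr1 in male Y202C was at -0.0021 with only the lines compared, and Fgf7 in female Y202C at 0.039 with limma. For sign changes and lost calls the cause was not tested. Same-numbered replicates did not deviate together (0 of 10 comparisons, r from -0.29 to 0.24), and the replicate block changed 0 of 108 calls and left 6, 9, 7, 7 and 6 listed genes called in those comparisons. With only the compared lines fitted, 10 results had no value because the gene was filtered out. Depth limits Fgf1 in the female lines.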
